A study of Homo sapiens with 18 samples.

Results

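The comparison described here is the knockdown of SNRPD3 in cells that express MYCN. SHEP.tet21n (SHEP21N) is a human neuroblastoma cell line with a MYCN transgene that doxycycline (Dox) represses, so cells given only the vehicle DMSO keep MYCN on. In the 9 libraries used, DMSO-treated cells received either a non-targeting control siRNA (MYCN+/SNRPD3+, 3 libraries) or SNRPD3 siRNA #1 or #2 (MYCN+/SNRPD3-, 3 libraries each). The other 9 of the 18 libraries hold the same siRNAs in cells given 2 µg/mL Dox (MYCN-), and serve here only for values side by side. The libraries were chosen by their labelled treatment and siRNA, and the introns by a mean PSI from 0.01 to 0.99 over the 9 libraries, which kept 152707 of the 233650 introns in the data. PSI is the fraction of reads spanning a cluster of overlapping introns that removed a given intron, printed below as a percentage. The time between transfection and RNA extraction is not given in the sources used here.

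SNRPD3 encodes SmD3, a subunit of the heptameric Sm ring that is assembled around the U1, U2, U4 and U5 small nuclear RNAs. U1 pairs with the donor (5′) splice site and U2 with the branch point upstream of the acceptor (3′) splice site, and an exon whose sites are not both recognised can be skipped. MYCN is the MYC family transcription factor whose amplification marks high-risk neuroblastoma.

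Levels of MYCN and SNRPD3 were not measured here, because PSI compares introns within a cluster and gives no expression, so the repression of MYCN and the knockdown itself were not checked. Reads per intron are not given, so depth is unknown and no interval can be set around one PSI value. Between replicates of a group, the log odds of PSI across introns had Pearson correlations from 0.844 to 0.862, against 0.841 to 0.858 between groups. In 17377 of the tested introns (11.4%) the same PSI occurred exactly in more than 1 of the 9 libraries, and such values need not be measured levels. Of the genes that mark cell types, 11 of 12 mesenchymal markers, 5 of 11 noradrenergic markers, 3 of 7 epithelial markers and 0 of 5 blood markers had introns in the data, and SHEP cells are known to be of the mesenchymal kind. A gene appears only if it has introns that share splice sites, so a missing marker is not shown to be silent. The study calls its replicates independent and biological, while the labels do not say what separated them, so p-values measure the spread between these libraries.

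Exon skipping was higher after SNRPD3 knockdown in each of the 6 libraries. For 18425 cassette exons of 7344 genes, a skipping share was taken as the PSI of the intron that joins both neighbours of the exon, divided by the sum of itself and the average for the exon's own flanking introns. Averaged over these exons, the share was 37.97%, 38.41% and 38.93% in MYCN+/SNRPD3+ cells, 40.02%, 39.84% and 42.47% with siRNA #1, and 39.84%, 39.27% and 41.21% with siRNA #2. The lowest knockdown library lay above the highest control library, and the third replicate was the highest of its group in all 3 groups. The mean was 38.4% ± 0.48 (SD, n = 3) in control and 40.4% ± 1.2 (SD, n = 6) in knockdown cells, a difference of 2.00 percentage points (exact permutation test, two-sided as are all below, p = 0.0476, where 0.0119 is the lowest this design can give). Adjusted over the 19 measures of this kind that were planned, many of which share exons, p was 0.0696 and did not pass 0.05. The difference was 2.34 points with siRNA #1 and 1.67 points with siRNA #2, each against the same 3 control libraries (exact permutation tests, p = 0.1 each, the smallest possible). Within replicate numbers 1, 2 and 3 it was 1.96, 1.14 and 2.91 points, and without number 3 in each group it was 1.55 points (exact permutation test, p = 0.0667, the smallest possible). Leaving out 1 library at a time gave 1.60 to 2.25 points, and p passed 0.05 (exact permutation tests) only without siRNA #1 replicate 3 or siRNA #2 replicate 2. The median share over exons, taken in each library, differed by 4.09 points, while the median of the differences of single exons was 1.15 points.

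**Figure D1:**
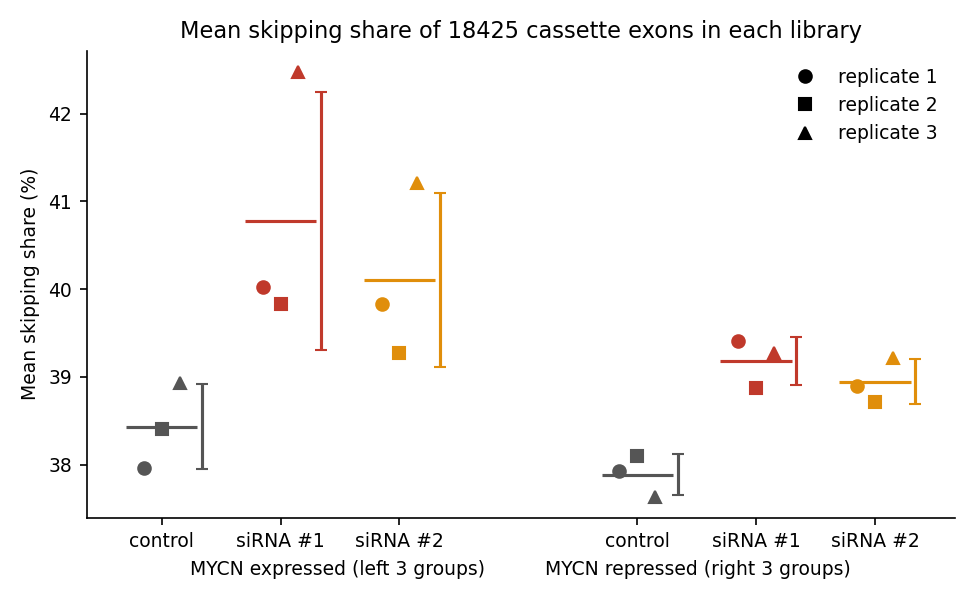
Mean skipping share of 18425 cassette exons (y axis, percent) in each of the 18 libraries (symbols show the replicate number), with the group mean (horizontal line) and SD (error bar, n = 3). The 6 MYCN+/SNRPD3- libraries sit between 39.3% and 42.5%, all above the 3 MYCN+/SNRPD3+ libraries, and the y axis does not start at 0.

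In cells with MYCN repressed, the same exons were skipped at 37.9% ± 0.24 (SD, n = 3) with control siRNA and 39.1% ± 0.27 (SD, n = 6) with SNRPD3 siRNAs, a difference of 1.18 points (exact permutation test, p = 0.0119, adjusted p = 0.0174). These cells use their own 3 control libraries. Higher skipping was therefore measured with MYCN on and off, and whether both differences differ from each other was not tested at the level of libraries.

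The shift was spread over many exons rather than carried by a few. The skipping share had a higher mean after knockdown in 71.3% of the 18425 exons, with a median difference of 1.15 points, against 64.3% and 0.539 points with MYCN repressed. At an unadjusted p under 0.05 by limma on the log odds of the share, 1942 exons differed (10.5% of those tested), 1706 with more skipping (9.26%) and 236 with less (1.28%). In 1230 exons of 976 genes (6.68% of those tested) all 6 knockdown libraries lay above all 3 controls, and in 116 exons of 101 genes (0.63%) all 6 lay below. In the libraries with MYCN repressed, which had no part in choosing them, 972 of 1186 exons of the first set (82.0%) were also skipped more after knockdown, against 64.1% of all tested exons, and 39 of 108 of the second set (36.1%). The median difference there was 1.62 points for the first set and -0.716 points for the second, so the direction of both medians was kept at a smaller size. Among all exons tested with MYCN repressed, 646 (3.6%) lay above and 112 (0.624%) below all of their own controls. After Benjamini-Hochberg adjustment only 5 exons passed (0.0271% of those tested). Without number 3 in each group, 1347 exons had an unadjusted p under 0.05, 76.2% of them with more skipping, against 87.8% with all 9 libraries. In the 4 knockdown and 2 control libraries then left, 2662 exons lay above and 677 below, a non-overlap that fewer libraries reach more easily.

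**Figure D2:**
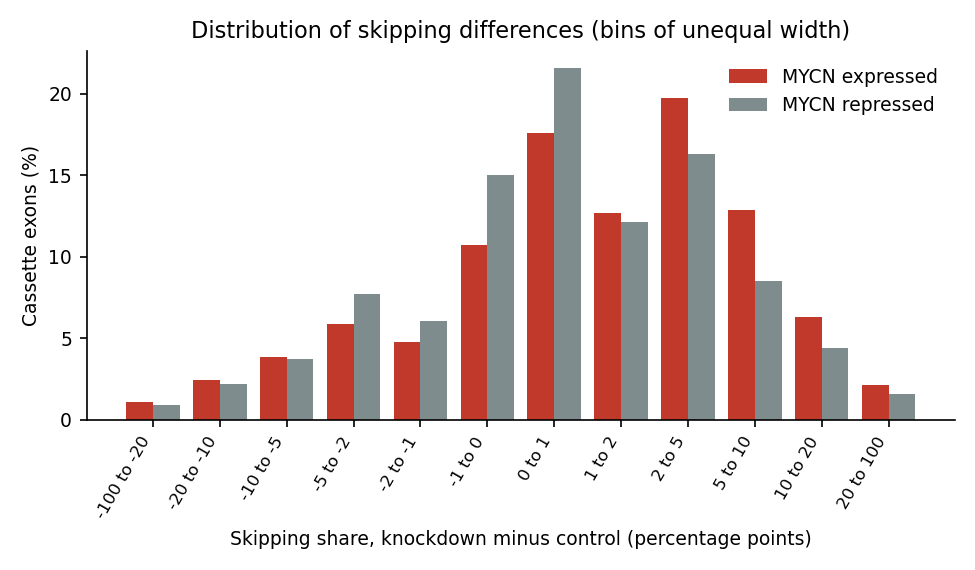
Distribution of the difference in skipping share (knockdown minus control, percentage points, bins of unequal width on the x axis) over 17567 cassette exons tested at both MYCN levels, as percent of exons (y axis). With MYCN expressed, 12.9% of exons lay between 5 and 10 points and 6.31% between 10 and 20, against 8.52% and 4.39% with MYCN repressed.

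The 1230 exons skipped more in every knockdown library had a median length of 100 bases, against 113 over all tested exons, and 46.9% had a length that is a multiple of 3, which keeps the reading frame when such an exon is lost, against 42.7%. They were wholly coding in 63.9% of cases, against 54.2%, and their median skipping in control cells was 11.1%, against 21.5%. The strength of their donor sites was close to that of all exons, with a median score of 7.64 against 7.77 on a scale of log2 odds, where a site made of the most frequent base at each position scores highest. These figures describe the set, and no test was made on it, since a non-overlap of 9 values is easier to reach for exons whose share varies little between replicates.

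Averages over whole classes of exons, made without regard to which exons moved, differed in size between some classes. The widest gap of the planned classes was for length: skipping was 2.46 points higher after knockdown in the shortest exons, 2.03 in those of middle length and 1.52 in the longest. Short minus long changed by 0.942 points, with 3 of 6 knockdown libraries above the controls (exact permutation test, p = 0.131). Skipping was 2.17 points higher after knockdown in the third of exons with the weakest donor sites (42.8% ± 0.46 in control, SD, n = 3; exact permutation test, p = 0.0119) and 1.73 points higher in the third with the strongest (p = 0.0476 in the same permutation test). The gap between both classes was wider after knockdown by 0.438 points (exact permutation test, p = 0.0357, adjusted p = 0.0696), with 5 of 6 knockdown libraries above the controls. With MYCN repressed the gap was wider by 0.423 points (p = 0.0119 in the same permutation test), with 6 of 6 libraries above. For acceptor sites the gap between weak and strong sites differed by -0.556 points, with 5 of 6 knockdown libraries below the controls (exact permutation test, p = 0.0714).

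Exons whose length is not a multiple of 3 were skipped slightly more than the others in each control library, by 0.330, 0.106 and 0.294 points. After knockdown this gap was -0.0999, 0.0424 and -0.00174 points with siRNA #1 and -0.108, -0.101 and -0.162 points with siRNA #2, below every control. The change was -0.315 points (exact permutation test, p = 0.0119, the smallest possible, adjusted p = 0.0696), but with medians over exons in place of means it was -0.182 points and no longer separated the groups (exact permutation test, p = 0.619). By the means, skipping of frame-keeping exons was higher by 2.19 points and of frame-shifting exons by 1.87 points. Transcripts that lose a frame-shifting exon can be removed by nonsense-mediated decay, and its part in this gap was not tested. With MYCN repressed the change was -0.0328 points (exact permutation test, p = 0.881), and the difference between MYCN levels was not tested.

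Classes added after seeing these values gave a broader range. Wholly coding exons went from 24.0% ± 0.13 (SD, n = 3) to 26.1% ± 1.2 (SD, n = 6), a difference of 2.07 points. Exons skipped at 5 to 50% in control cells with MYCN repressed, which are libraries outside this comparison, had the largest difference of the classes examined, 3.30 points, against 1.21 points for those under 5% and 1.42 points for those at 50% or more. Exons with long downstream introns were 2.33 points higher and those with short ones 1.81 points. Low and high GC content gave 2.03 and 1.89 points.

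**Figure D3:**
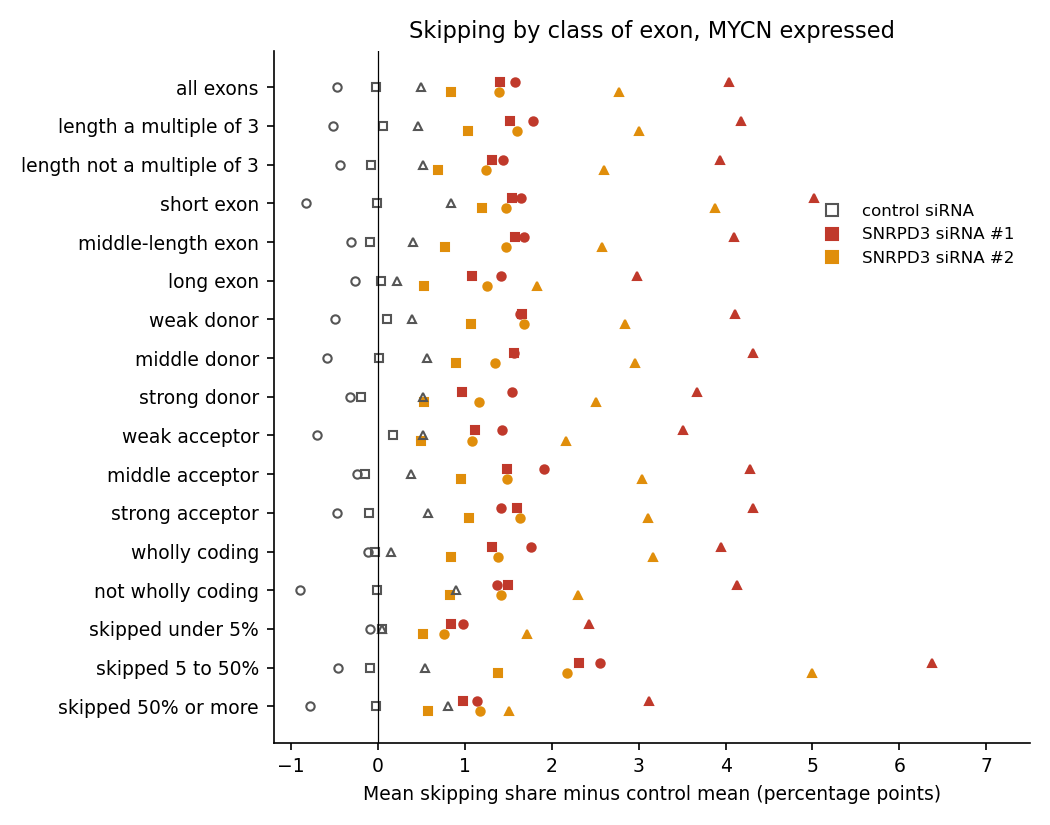
Mean skipping share of each library minus the mean of the 3 control libraries (x axis, percentage points) for classes of cassette exons (y axis), with MYCN expressed; open grey symbols are controls, filled symbols the SNRPD3 siRNAs, and circles, squares and triangles are replicates 1, 2 and 3. Exons skipped at 5 to 50% with MYCN repressed show the widest shift, 3.30 points on average.

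Other splicing choices were measured in the same way, for annotated introns that share 1 end. Where an exon has 2 donor sites, the upstream site, which makes the shorter exon, took 47.2% ± 0.18 (SD, n = 3) of the pair in control and 46.6% ± 0.25 (SD, n = 6) in knockdown cells over 1908 pairs. All 6 knockdown libraries lay below the 3 controls, and the difference was -0.594 points (exact permutation test, p = 0.0119, adjusted p = 0.0696). It was -0.305 points with MYCN repressed (exact permutation test, p = 0.202). Over 2919 pairs of acceptor sites, the share of the downstream site differed by -0.439 points with siRNA #1 and 0.146 points with siRNA #2, so the siRNAs went opposite ways. The share of PSI in introns that are not annotated was 12.8% ± 0.225 (SD, n = 3) in control and 12.9% ± 0.0981 (SD, n = 6) in knockdown cells, which did not differ beyond replicate error (exact permutation test, p = 0.226).

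Splice sites of some exons named below are printed to show what the spliceosome reads at them. Capitals mark the AG that ends the upstream intron and the GT that opens the downstream intron. Acceptors have 20 intron and 3 exon bases, donors 3 exon and 6 intron bases, 5′ to 3′ on the gene's strand, hg38. The most frequent bases at annotated donor sites spell cagGTaagt.
TSPAN14 exon 4, chr10:80507228-80507374, plus strand, acceptor: gctttctctgtctctttcAGggt
TSPAN14 exon 4, donor: tttGTgagt
TRIM16, chr17:15658802-15658876, minus strand, acceptor: aggccatcttcttcttttAGgag
TRIM16, donor: cagGTaagc
PTBP2 exon 13, chr1:96813029-96813106, plus strand, acceptor: ttcccattcaattttcctAGtcc
PTBP2 exon 13, donor: tcaGTaagc
MDM4 exon 9, chr1:204544535-204544684, plus strand, acceptor: gtttgttttttttctgttAGgat
MDM4 exon 9, donor: aagGTatgt
BIRC5 exon 3, chr17:78216664-78216781, plus strand, acceptor: tgttgttttgatttttctAGaga
BIRC5 exon 3, donor: attGTatgt
The donor scores were 4.87 for TSPAN14, 11.03 for TRIM16, 3.94 for PTBP2, 10.1 for MDM4 and 4.56 for BIRC5, so exons with both weak and strong donors are among those described. The whole TRIM16 exon, 75 bases and coding, is shown because its skipping share differed most of the named exons with values away from 0 and 100% on both sides.
TRIM16 exon: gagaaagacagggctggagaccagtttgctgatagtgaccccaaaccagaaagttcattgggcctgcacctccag

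Of the 5 exons that passed (limma, Benjamini-Hochberg), 4 were skipped more and 1 less, and in the 4 genes below the share was near 0 in at least 1 group of libraries. In TNNT2, cardiac troponin T, exon 10 (chromosome 1, 201365191 to 201365307) was skipped in 39.5%, 44.4% and 22.1% of control and in 0.749 to 1.79% of knockdown libraries (adjusted p = 0.00947). In CPM, the membrane-bound carboxypeptidase M, an exon absent from the canonical transcript (chromosome 12, 68885792 to 68885885) was skipped at 0.432 to 0.544% in control libraries, and at 22.3%, 25.1% and 26.3% with siRNA #1 and 30.6%, 15.4% and 29.9% with siRNA #2 (adjusted p = 0.00624). A second, overlapping exon of CPM made up the fifth call. With MYCN repressed the means were 18.9% ± 31 (SD, n = 3) and 24.0% ± 30 (SD, n = 6) for TNNT2, and 21.5% ± 6.0 (SD, n = 3) and 11.7% ± 6.0 (SD, n = 6) for CPM, control before knockdown.

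In FAM86JP, a pseudogene of a multigene family whose reads may be split between copies, skipping went from 0.211% ± 0.024 (SD, n = 3) to 15.6% ± 2.5 (SD, n = 6), with an adjusted p of 0.000399. In TRIM36, a ubiquitin ligase, exon 2 (chromosome 5, 115163518 to 115163752) was skipped at 20.98%, 17.4% and 16.2% with siRNA #1, and at 0.479%, 0.282% and 0.236% with siRNA #2, against 0.0938 to 0.200% in control libraries (adjusted p = 0.0144). The call in TRIM36 thus rested on siRNA #1, and without control replicate 2 its adjusted p was 0.0514. Without number 3 in each group none of the 4 genes passed, with adjusted p from 0.0640 to 0.143.

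The next exons by p value did not pass, and their values are given as such. In TRIM16, of the tripartite motif family, skipping was 43.2%, 28.7% and 40.02% in control libraries, 66.9%, 76.7% and 73.2% with siRNA #1, and 64.9%, 65.4% and 75.4% with siRNA #2 (limma, adjusted p = 0.289). The groups did not overlap, but with MYCN repressed the means were 52.0% ± 7.5 (SD, n = 3) in control and 50.5% ± 12 (SD, n = 6) in knockdown cells. In TSPAN14, a tetraspanin that assists the sheddase ADAM10, exon 4 was skipped at 25.6%, 28.6% and 34.4% in control, 57.0%, 62.5% and 63.9% with siRNA #1, and 50.6%, 47.2% and 40.5% with siRNA #2 (adjusted p = 0.289). All 6 knockdown values exceeded the controls, and siRNA #1 gave the higher ones.

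In NMU, which encodes the neuropeptide neuromedin U, the 48-base exon 3 (chromosome 4, 55616338 to 55616385) was skipped at 0.107 to 0.205% in control and 4.87 to 22.8% in knockdown libraries (limma, adjusted p = 0.242). In CTDP1, a phosphatase of the RNA polymerase II tail, exon 11 (chromosome 18, 79728907 to 79729069) was skipped at 0.265%, 0.153% and 4.84% in control and 13.5 to 19.2% in knockdown libraries (adjusted p = 0.289). Antisense RNAs gave wide differences. In A1BG-AS1 (chromosome 19, 58353321 to 58353461), skipping was 2.73 to 6.08% in control and 65.5 to 99.3% in knockdown libraries (adjusted p = 0.0707), but it was 84.1% ± 6.0 (SD, n = 3) in control cells with MYCN repressed. In POT1-AS1 the share was 99.7% ± 0.037 (SD, n = 3) in control and 82.9% ± 12 (SD, n = 6) in knockdown cells (adjusted p = 0.289). Introns carry no strand in these data, so an antisense RNA and its partner cannot always be told apart.

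**Figure D4:**
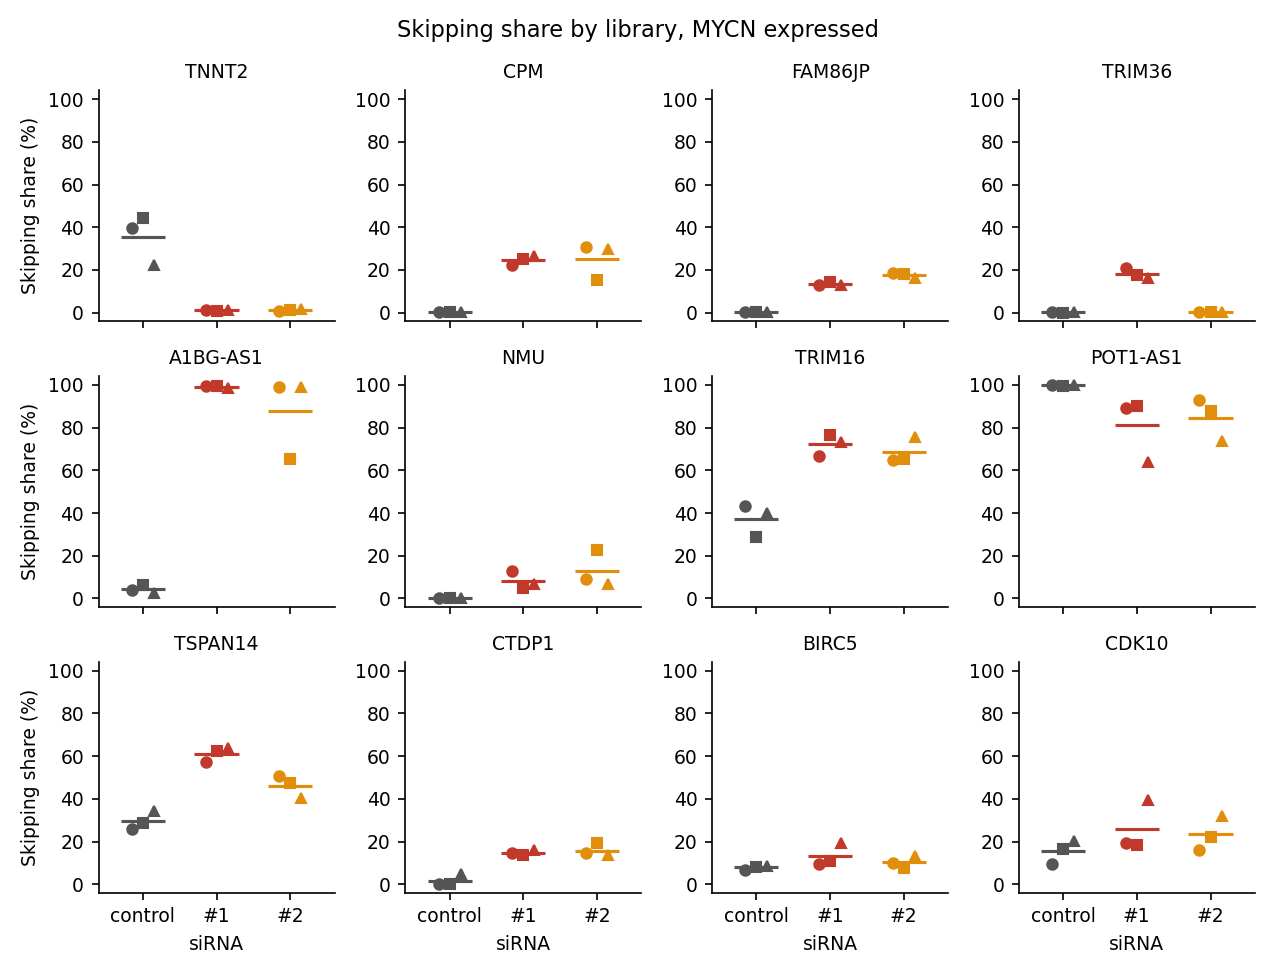
Skipping share (y axis, percent) of 12 cassette exons in each of the 9 MYCN-expressing libraries by siRNA (x axis; circles, squares and triangles are replicates 1, 2 and 3; lines are group means of n = 3). In TRIM16 the control libraries lie between 28.7% and 43.2% and the knockdown libraries between 64.9% and 76.7%, while BIRC5 exon 3 and CDK10 exon 2 overlap between groups.

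Genes of the splicing machinery were grouped into lists by role, and 0 introns passed in the 6 lists of splicing proteins, where the share among all tested introns, 0.115%, would give few or none in lists of this size. At an unadjusted p under 0.05 the lists held 6.39% to 12.3% of their introns, against 6.37% of all introns with a gene. For the Sm ring and other snRNP proteins, in which SNRPD3 itself was not analysed, 2 of 10 cassette exons lay above all controls in every knockdown library and 1 below, against 6.68% and 0.63% of all exons. In SNRPA1, the U2 protein A′, exon 6 had a skipping share of 3.73%, 4.08% and 5.28% in control and 2.46 to 3.38% in knockdown libraries (limma, unadjusted p = 0.0590). For Sm methylation and the SMN complex, which load the ring, 2 of 31 exons lay above and 2 below (6.45% each, against 6.68% and 0.63%). Exon 2 of GEMIN8, an SMN complex subunit, was skipped at 29.4%, 31.1% and 32.5% in control, 33.4%, 41.1% and 44.8% with siRNA #1, and 37.8%, 49.3% and 48.7% with siRNA #2 (adjusted p = 0.432). With MYCN repressed its means were 27.1% ± 1.8 (SD, n = 3) and 28.1% ± 3.7 (SD, n = 6).

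Among U2, U5 and catalytic spliceosome proteins, 12 of 95 exons (12.6%, against 6.68%) in 11 genes lay above all controls and 1 below, with a median difference of 1.49 points against 1.15 over all exons. Before adjustment 12.3% of the introns of this list had a p under 0.05, against 6.37% of all introns with a gene. In PUF60, a protein of 3′ splice site recognition, an alternative coding exon of 84 bases was skipped at 63.8 to 74.7% in control and 84.4 to 93.2% in knockdown libraries (limma, adjusted p = 0.319). In RBM39, an SR-like splicing factor, an exon outside the canonical transcript was skipped at 84.4 to 87.1% in control and 90.0 to 93.9% in knockdown libraries (adjusted p = 0.379), and at 82.0% ± 2.4 (SD, n = 3) and 85.4% ± 3.1 (SD, n = 6) with MYCN repressed. SF3B3, a subunit of the U2-associated SF3b complex, went the other way for a 29-base exon, with 96.0 to 97.2% in control and 81.7 to 94.1% in knockdown libraries (adjusted p = 0.408).

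The list of SR proteins, which bind exons and favour their inclusion, also held related arginine/serine-rich proteins such as RSRP1 and RSRC1. In this list 6 of 36 exons (16.7%, against 6.68% of all exons) lay above all controls and 0 below. The 6 were in 3 genes, SRSF11, RSRP1 and RSRC1, and the median difference of the list was 0.792 points, under that of all exons. In SRSF11, skipping of an exon outside the canonical transcript was 48.3%, 54.6% and 54.0% in control and 59.8 to 65.4% in knockdown libraries (limma, adjusted p = 0.424), while with MYCN repressed it was 64.4% ± 10 (SD, n = 3) in control and 58.4% ± 11 (SD, n = 6) in knockdown cells. In RSRP1, a small arginine/serine-rich protein, a 45-base exon was skipped at 35.3 to 55.1% in control and 67.6 to 90.9% in knockdown libraries (adjusted p = 0.405).

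The hnRNP list, proteins that often repress exons, had 14 of 46 exons (30.4%) in 11 genes above all controls and 0 below, against 6.68% and 0.63% of all exons, with a median difference of 2.57 points against 1.15. By limma, 5 of the 46 exons had an unadjusted p under 0.05, against 10.5% of all exons, so by this measure the list was close to all exons. With MYCN repressed its median was 0.779 points, against 0.539 over all exons. In PTBP2, the neuronal paralogue of the polypyrimidine tract binding protein, exon 13 was skipped at 0.0535%, 1.64% and 1.37% in control, 6.97%, 7.07% and 15.7% with siRNA #1, and 2.48%, 9.16% and 12.5% with siRNA #2 (limma, adjusted p = 0.348). In TAF15, exon 4 was skipped at 69.9 to 81.8% in control and 83.1 to 88.3% in knockdown libraries (adjusted p = 0.429). In SYNCRIP (hnRNP Q), an 88-base coding exon was skipped at 1.30 to 2.05% in control and 2.30 to 5.89% in knockdown libraries (adjusted p = 0.450). Exons of 1 gene share introns, so the counts of exons are not counts of independent events.

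Splicing kinases, which phosphorylate SR proteins, had 2 of 26 exons above (7.69%, close to the 6.68% of all exons), both in CLK4, and 0 below. A CLK4 exon of 59 bases was skipped at 71.7 to 73.5% in control and 75.6 to 85.5% in knockdown libraries (limma, adjusted p = 0.455). For nonsense-mediated decay and the exon junction complex, 3 of 25 exons (12%, against 6.68% of all exons) lay above and 0 below. In MAGOH, a core protein of the exon junction complex, exon 3 was skipped at 17.1 to 18.9% in control and 20.9 to 29.7% in knockdown libraries (adjusted p = 0.474).

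Cell cycle genes had 30 of 219 exons (13.7%, against 6.68% of all exons) in 23 genes above all controls and 1 below (0.457%, against 0.63%), with a median difference of 1.37 points against 1.15. In ANAPC7, a subunit of the anaphase-promoting complex, exon 4 was skipped at 3.46 to 4.63% in control, 4.85 to 8.12% with siRNA #1 and 8.40 to 11.9% with siRNA #2 (limma, adjusted p = 0.379). In RACGAP1, which builds the central spindle, an 85-base coding exon was skipped at 0.289 to 1.30% in control and 1.62 to 3.85% in knockdown libraries (adjusted p = 0.390). The same exon was at 0.757% ± 0.11 (SD, n = 3) and 1.86% ± 0.36 (SD, n = 6) with MYCN repressed. The only called intron of the list with 9 different values was an unannotated one in CDC14B, a phosphatase of mitotic exit, at 3.52 to 3.61% in control and 0.0208 to 0.0800% in knockdown libraries (adjusted p = 0.000756), and at 4.10% ± 3.8 (SD, n = 3) in control cells with MYCN repressed.

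BIRC5 and CDK10 were named because the study examined their splicing in these samples, so they are not independent evidence of a direction. BIRC5 encodes survivin, an inhibitor of apoptosis and subunit of the chromosomal passenger complex. Skipping of its exon 3 was 6.89%, 8.22% and 8.69% in control, 9.52%, 11.1% and 19.5% with siRNA #1, and 9.80%, 7.73% and 13.1% with siRNA #2. The library of siRNA #2 replicate 2 lay among the controls, and the difference of 3.84 points did not pass (limma, adjusted p = 0.542). With MYCN repressed the means were 8.59% ± 1.9 (SD, n = 3) and 10.8% ± 1.3 (SD, n = 6). Another BIRC5 exon, outside the canonical transcript (78222828 to 78222992), did not overlap between groups. It was skipped at 98.1 to 98.4% in control and 98.5 to 98.9% in knockdown libraries (limma, adjusted p = 0.562).

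CDK10 encodes a cyclin M-dependent kinase. Exon 2 (chromosome 16, 89689252 to 89689324) was skipped at 9.61%, 16.5% and 20.4% in control, 19.5%, 18.3% and 39.6% with siRNA #1, and 16.05%, 22.1% and 32.1% with siRNA #2 (limma, adjusted p = 0.545). With another upstream neighbour, the same exon was skipped at 3.26 to 5.78% in control and 4.04 to 9.72% in knockdown libraries (limma, adjusted p = 0.507). The third replicate was the highest of each group. PSI of intron 7 was 46.0%, 42.6% and 39.1% in control, 42.8%, 41.3% and 32.5% with siRNA #1, and 39.1%, 44.8% and 35.8% with siRNA #2, with overlapping groups (adjusted p = 0.951). PSI is made from spliced reads, so retention of this intron was not measured. The control here is MYCN+/SNRPD3+, whereas the study compared both genes with wildtype (MYCN-/SNRPD3+) cells. The study also states that its other samples, among which is MYCN+/SNRPD3+, include the skipped BIRC5 exon or splice out this CDK10 intron. It reports both events by RT-qPCR as well, again against wildtype cells.

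DNA damage response genes had 20 of 283 exons (7.07%) in 15 genes above all controls and 1 below, by this count close to the share of all exons. By limma, 42 of the 283 had an unadjusted p under 0.05, against 10.5% of all exons. In MDM4, an inhibitor of p53, exon 9 was skipped at 5.23%, 2.34% and 5.10% in control, 12.4%, 8.95% and 11.9% with siRNA #1, and 9.02%, 16.1% and 13.2% with siRNA #2 (limma, adjusted p = 0.348). With MYCN repressed it was at 6.22% ± 2.6 (SD, n = 3) and 10.5% ± 4.6 (SD, n = 6). In LIG4, the ligase of non-homologous end joining, a non-coding exon was skipped at 33.1%, 5.09% and 0.881% in control and 43.5 to 84.0% in knockdown libraries (adjusted p = 0.319). The only called intron of this list held a repeated value.

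Among apoptosis genes 7 of 75 exons (9.33%, against 6.68% of all exons) in 4 genes lay above and 0 below. Exon 6 of BCL2L13, a mitochondrial protein of the BCL2 family, was skipped at 3.91 to 5.77% in control and 6.93 to 9.39% in knockdown libraries (limma, adjusted p = 0.424), and at 5.79% ± 0.61 (SD, n = 3) and 7.71% ± 1.0 (SD, n = 6) with MYCN repressed. In the MYC and MAX network 3 of 40 exons (7.5%, close to the 6.68% of all exons) lay above and 1 below. In SKP2, the F-box protein that marks p27 and MYC for ubiquitination, an annotated intron outside the canonical transcript (chromosome 5, 36177292 to 36183840) had a PSI of 33.6%, 31.4% and 30.3% in control, 44.1%, 41.2% and 49.7% with siRNA #1, and 43.8%, 45.1% and 49.98% with siRNA #2. Its groups did not overlap, the adjusted p was 0.380, and PSI was 25.4% ± 2.3 (SD, n = 3) in control and 39.7% ± 5.9 (SD, n = 6) in knockdown cells with MYCN repressed. In AURKA, the mitotic kinase that stabilises MYCN, a 98-base exon was skipped at 34.3 to 37.2% in control and 38.7 to 54.0% in knockdown libraries (adjusted p = 0.475).

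The list of cytosolic ribosomal protein genes, which also holds the L7-like gene RPL7L1, had 4 of 14 exons (28.6%) above and 0 below. The shares of all exons were 6.68% and 0.63%, and the 4 were in 3 genes, RPL27, RPL7L1 and RPLP0. By limma, only 1 of the 14 had an unadjusted p under 0.05, against 10.5% of all exons. Exon 6 of RPLP0, a protein of the ribosomal stalk, was skipped at 3.97%, 4.03% and 4.14% in control and 5.00 to 8.67% in knockdown libraries (limma, adjusted p = 0.447), and at 3.93% ± 0.18 (SD, n = 3) and 5.02% ± 0.49 (SD, n = 6) with MYCN repressed. Small nucleolar RNA host genes, whose spliced exons are mostly non-coding, had 20 of 90 exons (22.2%) in 6 genes above and 0 below, against 6.68% and 0.63% of all exons, with a median difference of 2.93 points against 1.15. In SNHG17, exon 5 was skipped at 71.5 to 76.4% in control and 79.6 to 89.2% in knockdown libraries (adjusted p = 0.375). In SNHG4, a 124-base exon was skipped at 37.7 to 41.7% in control and 43.8 to 59.3% in knockdown libraries (adjusted p = 0.447), and at 33.2% ± 3.4 (SD, n = 3) and 42.9% ± 3.8 (SD, n = 6) with MYCN repressed. At an unadjusted p under 0.05 (limma), this list held 17 of 90 exons, cell cycle genes 34 of 219 and DNA damage response genes 42 of 283. The list of SR and related proteins held 4 of 36, apoptosis genes 8 of 75 and nonsense-mediated decay 0 of 25, against 10.5% of all exons. The lists differ in how many exons each gene gives, and none was tested against the others.

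Taking every intron by itself, 175 introns in 149 clusters passed (limma, Benjamini-Hochberg; 0.115% of those tested), 82 with higher (0.0537%) and 93 with lower PSI (0.0609%). Before adjustment, 9676 introns had a p under 0.05 (6.34%). Both siRNAs, which share the control libraries, gave the same sign in 158 of the 175. The calls were made on the average of both siRNAs, which favours introns where they agree. A repeated value was held by 49 (28%, against 11.4% of tested introns), which left 126 introns in 107 genes, 58 higher and 68 lower. The groups did not overlap in 97 of the 126, 33 above and 64 below all controls, against 2.0% and 1.6% of tested introns. The same values made the calls, so this non-overlap is no separate support for them. Of these 126, 116 (92.1%) were under 1% or over 99% in every library of control or in every library of knockdown cells, against 6.10% of tested introns, and 46 (36.5%) were annotated, against 67.5%. The calls were thus mostly introns listed near 0 or 100% in 1 group, and their median absolute difference was 5.98 points. With MYCN repressed, 102 of them could be tested, 54 had the same sign and 0 passed (limma), while 1 had an unadjusted p under 0.05 with the same sign. The median absolute difference of these introns was then 2.37 points. In a fit of their own, the libraries with MYCN repressed called 154 introns (0.103%; 4.94% at an unadjusted p under 0.05) and 6 cassette exons (0.0334%; 6.51%).

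**Figure D5:**
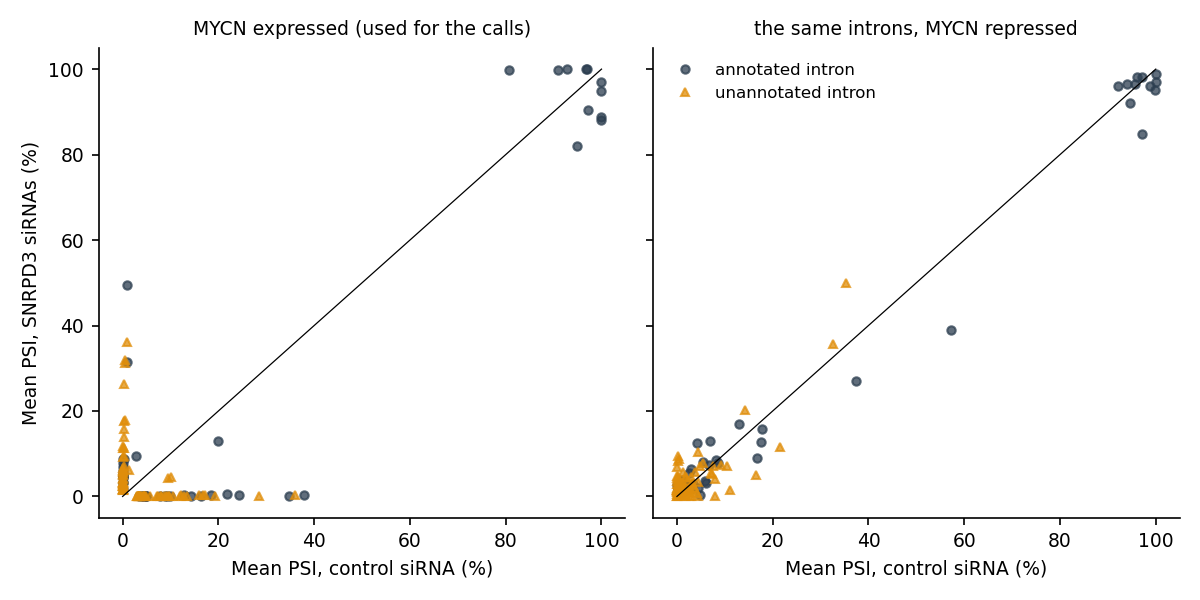
Mean PSI with control siRNA (x axis, percent) against mean PSI with SNRPD3 siRNAs (y axis, percent) for the 126 called introns with 9 different values, with MYCN expressed (left, the values that made the calls) and with MYCN repressed (right). On the left, 116 of the introns lie near 0 or 100% in 1 group, and on the right 54 of the 102 that could be tested kept their sign.

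The named introns, those with the widest differences whose groups did not overlap, include few that lie away from these ends. Of the 20, 10 were lost without number 3 in each group, 16 with all 18 libraries in the fit and 18 with untransformed values. The clearest was in DYNC2H1, the motor of retrograde transport in cilia. PSI of its annotated intron 10 (chromosome 11, 103121496 to 103122825) was 95.6%, 94.1% and 95.0% in control, 78.7%, 84.4% and 79.3% with siRNA #1, and 79.7%, 83.7% and 86.9% with siRNA #2 (limma, adjusted p = 0.0475). With MYCN repressed it was 97.1% ± 4.7 (SD, n = 3) in control and 84.9% ± 8.9 (SD, n = 6) in knockdown cells. The call was lost in 6 of 9 fits without 1 library, with an adjusted p of up to 0.139, and without number 3 in each group it was 0.198. In COL7A1, the collagen of anchoring fibrils, PSI of intron 18 was 73.8%, 80.6% and 87.4% in control and 99.8 to 99.9% in knockdown libraries (adjusted p = 0.00182), and 92.1% ± 3.4 (SD, n = 3) and 96.0% ± 4.6 (SD, n = 6) with MYCN repressed.

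The others were near 0 in 1 group. In LINC01524, a long non-coding RNA, PSI of intron 5 (chromosome 20, 52539061 to 52550031) was 0.532 to 1.49% in control and 37.3 to 59.5% in knockdown libraries (adjusted p = 0.00221), a call lost without number 3 in each group (0.0610) and with untransformed values (0.143). In BDH1, a mitochondrial enzyme of ketone metabolism, PSI of intron 2 was 18.2%, 47.3% and 48.0% in control and 0.215 to 0.572% in knockdown libraries (adjusted p = 0.00860), and with MYCN repressed it was 4.76% ± 7.5 (SD, n = 3) and 0.434% ± 0.14 (SD, n = 6). The BDH1 call was lost without number 3 (adjusted p = 0.140), with an offset of 0.05 (0.0677) and with untransformed values (0.496).

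With MYCN repressed PAPPA2, a protease of insulin-like growth factor binding proteins, had a PSI of 0.137% ± 0.064 (SD, n = 3) in control cells. With MYCN expressed PSI was lower in the same manner in PAPPA2, at 24.8 to 47.5% in control and 0.0914 to 0.407% in knockdown libraries (limma, adjusted p = 0.00140), in the zinc finger genes ZNF292 and ZNF302, in C5, LINC01504, FAM182B, PIK3IP1-DT, PPP1CB-DT and ENSG00000290535, and in the skipping intron of TNNT2. It was higher in DNAH14, an axonemal dynein, at 0.357 to 1.39% in control and 18.01 to 49.98% in knockdown libraries (adjusted p = 0.0451, above 0.05 in 7 of 9 fits without 1 library), and in ENSG00000234698, ENSG00000227279 and ENSG00000255292. With MYCN repressed DNAH14 was at 57.3% ± 36 (SD, n = 3) in control and 38.9% ± 17 (SD, n = 6) in knockdown cells. Control cells with MYCN repressed had 32.6% ± 14 (SD, n = 3) in ENSG00000234698, but 0.469% in ENSG00000227279 and 0.286% in ENSG00000255292. In GDF11, a ligand of the TGF-β family, an unannotated intron had a PSI of 25.6%, 25.6% and 42.9% with siRNA #2, but 0.316 to 0.690% with siRNA #1 and 0.280 to 0.314% in control libraries (adjusted p = 0.0254), so this call rested on siRNA #2 and was lost in 3 of 9 fits without 1 library. The call in C5, a complement protein, was lost in 7 of 9. Several of these are long non-coding RNAs, whose introns can rest on few reads, and the reads behind them are unknown.

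A direct test of whether the knockdown effect depended on MYCN, an interaction over all 18 libraries, called 27 of 152722 introns (0.0177%; limma) and 0 of 18365 cassette exons. At an unadjusted p under 0.05 there were 6079 introns (3.98%) and 762 exons (4.15%). Of the 116 called introns with 9 different values in that fit, 7 passed the interaction, and of the named introns only the one in LINC01524 did. These introns were called in 9 of the same 18 libraries, which favours a large interaction, so this is no separate support. Compared singly with the same controls, siRNA #1 called 149 introns and 7 cassette exons and siRNA #2 called 170 and 3 (0.0976%, 0.038%, 0.111% and 0.0163% of those tested).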

How the data were processed

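Libraries of poly(A) RNA (TruSeq Stranded mRNA) came from 18 samples. Per the labels, the authors used STAR (version 2.5.0a), SAMtools (version 1.3.1) and hg38. They grouped introns with leafcutter, and the deposited PSI values are fractions, 1 per intron and library, which add up to 1 over a cluster and never reach 0 or 1. The deposited comparisons of the authors (FDR and delta PSI) were not used. All 18 columns were matched to samples by name, with 0 unmatched. Depth is unknown.

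Introns, whose coordinates name the exon bases on either side, were placed on GENCODE release 44. An internal exon with both flanking introns and the skipping intron annotated in 1 cluster made a cassette set. log2((x + 0.01)/(1 - x + 0.01)) was fitted with limma 3.58.1 (R 4.3.3), 3 group means, both siRNAs averaged against control, over all features with a mean from 0.01 to 0.99, and p-values were adjusted by Benjamini-Hochberg (threshold 0.05). Single values per library were compared by exact permutation tests in Python 3.11.15. Exons were split into 3 classes of near equal size by length and splice site score, the latter from base frequencies at annotated sites. The fit was tested on simulated data. Estimates of shifts were unbiased at the median, but many moderate shifts were not called. With the real residuals shuffled between libraries, more unshifted introns and exons were called than the threshold implies. Shifting 200 introns by 2 or 4 in log2 odds recovered 65 and 130 of them, beside 76 and 92 false calls. For 200 cassette exons the fit recovered 101 and 155, beside 23 and 20 false calls. Single calls are thus weak evidence.

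Named were BIRC5 and CDK10, the 20 genes with the largest difference among called introns and the 10 with the largest or, failing that, lowest-p cassette exons, each with 9 different values, no overlap and 1 sign with both siRNAs, and the leading members of 13 gene lists. Some named items are not reported here. Members, lists and rules were chosen with earlier results of these data known. Alternatives were other offsets, filters, pooled or 18-library fits, untransformed values, a replicate block, a stricter threshold, and leaving out each library. Leaving out number 3, the block without repeated values, and exon classes by GC, intron length, coding and baseline skipping were added after seeing the data.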

Additional observations from a re-analysis of the deposited data

Results flagged for a closer look

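Of the named introns and exons, 1 passed the interaction of knockdown and MYCN. It was named for a wide difference in the 9 libraries with MYCN expressed. The interaction uses these libraries again, which favours a large value, so it is no separate support. In LINC01524 the interaction of knockdown and MYCN was 6.47 on the log2 odds scale (limma, adjusted p = 0.00430): PSI was 0.914% ± 0.51 (SD, n = 3) in control and 49.6% ± 8.9 (SD, n = 6) in knockdown cells with MYCN expressed, and 37.4% ± 12 (SD, n = 3) and 26.9% ± 12 (SD, n = 6) with MYCN repressed. The knockdown call with MYCN expressed was lost without number 3 in each group (adjusted p = 0.0610) and with untransformed values (0.143). The MYCN+/SNRPD3+ libraries were thus the group that stood apart. Reads behind these values are unknown, and their part was not tested.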

How the results depend on the processing

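Counts of single calls depended strongly on the processing, and the direction of exon skipping was the same under every alternative run. Against 175 introns and 5 cassette exons by limma, an offset of 0.001 called 278 and 13, all 18 libraries in the fit 36 and 9, a threshold of 0.01 on the adjusted p 91 and 3, and untransformed values 25 and 2. An offset of 0.05 called 61 introns, a trended robust variance 108, and a mean PSI from 0.05 to 0.95 63. Leaving out 1 library at a time called 279 to 361 introns and 8 to 24 exons, and leaving out number 3 in each group 500 and 1. The cause of the rise with fewer libraries was not tested. The share of calls with higher PSI was 46.9% in the reported fit and from 29.7% to 58.3% under these settings. The interaction called 14 introns over features with 18 different values. Same-numbered libraries were only weakly paired: their deviations had correlations from 0.000975 to 0.0475 over introns (mean 0.0181), against a mean of -0.00903 for other pairs. Over cassette exons the means were 0.0312 and -0.0156. With a replicate block 48 introns and 1 exon were called, and 20 and 1 over features with 9 different values. Of the intron calls, 25% and 5% then had higher PSI, and 14 of the 20 named introns and 3 of the 4 named exons that passed were lost with the block, among them LINC01524 (adjusted p = 0.0646) and BDH1 (0.0850).

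Skipping over all exons was higher by 1.60 to 2.25 points without 1 library, with p above 0.05 in 7 of 9 exact permutation tests. The same ranges were -0.384 to -0.272 for frame, 0.352 to 0.584 for donors, -0.670 to -0.413 for acceptors, 0.659 to 1.25 for short against long exons, -0.678 to -0.502 for the upstream donor share, -0.216 to -0.0766 for the downstream acceptor share and 0.0288 to 0.254 for unannotated PSI. The frame difference was -0.182 with medians and lost its call (exact permutation test, p = 0.619). Over exons with 9 different values the donor gap was 0.397 and the acceptor gap -0.646, which crossed the threshold of the exact permutation test, as the block did for short against long exons (0.942). The downstream acceptor share was -0.439 with siRNA #1 and 0.146 with siRNA #2. For low against high GC the sign turned with medians (-0.151), with siRNA #2 (-0.0609) and without some libraries (-0.224 to 0.521).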
